A study of Mus musculus with 12 samples.

Results

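The CCT chaperonin subunits were followed across 12 bulk RNA-seq libraries of 3 mouse cell lines, as the 8 genes *Tcp1*, *Cct2*, *Cct3*, *Cct4*, *Cct5*, *Cct6a*, *Cct7* and *Cct8*. They were found by gene symbol among the 34513 genes of the deposited count table, where each had 1 row, and all 8 passed the filter on low counts. The lines were Melan-A, a non-tumorigenic melanocyte line, B16F0, a tumorigenic melanoma line, and B16F10, a melanoma line that the study calls metastatic. Each line had an untreated control group and a group treated with SX-682, a small-molecule antagonist of the chemokine receptors CXCR1 and CXCR2, which made 6 groups of 2 libraries. The labels give neither the dose nor the time for these cultures and do not say whether the replicates were separate cultures, so the p-values measure the spread between these libraries, which may be technical. Each group is 1 cell line, so a difference between lines cannot be told apart from anything else that sets those lines apart.

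CCT, also called TRiC, is the cytosolic chaperonin of eukaryotes. It is a closed chamber made of a pair of stacked rings, each ring holding 1 copy of every subunit, and it uses ATP to fold newly made proteins that do not reach their shape alone. Actin and tubulin are its best known clients, and WD40-repeat proteins such as Cdc20 and G protein beta subunits are others. Prefoldin hands unfolded clients to the chamber, phosducin-like proteins assist it, and tubulin cofactors pair the folded alpha and beta tubulins. Because the ring has fixed places, the subunits are needed in equal numbers as proteins, whereas their mRNA levels can differ.

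The genes lie on 8 different chromosomes of mm10 (GRCm38). *Tcp1*, which encodes the alpha subunit, is at chr17:12915701-12925067 on the plus strand, *Cct2* (beta) at chr10:117051001-117063814 on the minus strand, *Cct3* (gamma) at chr3:88297116-88321767 on the plus strand and *Cct4* (delta) at chr11:22990519-23003780 on the plus strand. *Cct5* (epsilon) is at chr15:31590800-31601804 on the minus strand, *Cct6a* (zeta) at chr5:129786998-129846371 on the plus strand, *Cct7* (eta) at chr6:85451514-85468475 on the plus strand and *Cct8* (theta) at chr16:87483326-87495873 on the minus strand. In 5 of the 8 genes a protein-coding gene on the opposite strand started within 1000 bases of the subunit's own start. Among the 21951 coding genes of GENCODE M21 this held for 10.9%. The neighbours were *Mrpl18* beside *Tcp1*, *Tsacc* beside *Cct3*, *Atpsckmt* beside *Cct5*, *Psph* beside *Cct6a* and *Pradc1* beside *Cct7*. *Mrpl18*, *Psph* and *Pradc1* shared exonic bases with their subunit gene, so the count includes overlapping pairs.

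Promoter sequence was at hand for 7 of the 8 genes, as windows of 300 bases from the RefSeq table for GRCm38.p6, and *Cct4* was not matched. The stretches outside annotated exons are shown for 4 subunits that differed in their response, with *Cct2* higher and *Cct3* lower under SX-682 in all lines, *Cct8* lower in the melanoma lines and *Cct7* among the smallest changes. Each runs 5′ to 3′ on the gene's strand, and capitals mark motifs read on both strands. They are the GC box, spelled GGGCGG, the box spelled CCAAT and the ETS core, spelled CCGGAAG on the strand shown or its complement.
Cct2, chr10:117063853-117064102, minus strand: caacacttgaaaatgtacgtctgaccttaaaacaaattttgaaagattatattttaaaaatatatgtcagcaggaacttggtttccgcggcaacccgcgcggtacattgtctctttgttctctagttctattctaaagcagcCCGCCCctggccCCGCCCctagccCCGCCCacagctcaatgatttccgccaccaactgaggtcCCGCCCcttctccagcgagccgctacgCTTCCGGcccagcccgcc
Cct3, chr3:88297000-88297115, plus strand: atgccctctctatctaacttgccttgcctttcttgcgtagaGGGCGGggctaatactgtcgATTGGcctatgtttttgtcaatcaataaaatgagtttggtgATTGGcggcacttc
Cct7, chr6:85451284-85451504, plus strand: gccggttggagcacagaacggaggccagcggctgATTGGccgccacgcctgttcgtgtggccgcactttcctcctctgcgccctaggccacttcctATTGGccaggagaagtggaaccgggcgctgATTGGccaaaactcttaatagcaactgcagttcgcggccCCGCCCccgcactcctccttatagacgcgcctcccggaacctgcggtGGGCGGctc
Cct8, chr16:87495874-87495998, minus strand: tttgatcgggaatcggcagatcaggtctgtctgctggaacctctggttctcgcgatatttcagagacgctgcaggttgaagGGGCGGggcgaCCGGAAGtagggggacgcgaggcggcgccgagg

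Over the whole 300-base windows, a GC box was present in all 7 subunit promoters against 35.7% of the 32851 promoters of the table. *Cct2* had 5 of them and its window held no CCAAT box, whereas *Cct7* had 2 GC boxes and 3 CCAAT boxes. CCAAT was found in 4 of the 7 (37.4% of all promoters) and the ETS core in 3 of the 7 (8.86%). The heat shock element letters GAANNTTC or TTCNNGAA were found in *Cct5* and *Cct6a* alone (15.1% of all promoters). The E-box CACGTG, the ATF4-CEBP composite TGATGNAA and the cAMP response element TGACGTCA were in none of the 7, and the palindromic NRF1 motif was in *Cct5* (0.971% of all promoters). The GC box was thus the one motif of those searched that *Cct2*, *Cct3*, *Cct7* and *Cct8* all carried.

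The libraries held between 48877000 and 85322100 counts (to 6 significant digits), and the subunits were deeply counted, at 15490 to 78775 reads for a gene in a library. The 2 libraries of a group differed by at most 4.86% of their mean for any subunit (*Cct4* in untreated Melan-A), and counting error alone was at most 0.803% of a value. Melanocyte genes were checked in each line, since all 3 are of that lineage. The 7 markers summed to 1344 to 1374 CPM (reads of a gene per 1e6 reads) in untreated Melan-A. The sum was 18579 to 18664 CPM in untreated B16F0 and 24442 to 24471 CPM in untreated B16F10. In untreated Melan-A *Tyr*, which encodes tyrosinase, was at 0.892 and 0.760 CPM. *Sox10* went the other way, at 655 and 685 CPM in untreated Melan-A. It was at 445 and 460 CPM in untreated B16F0 and at 582 and 589 CPM in untreated B16F10. Under SX-682 all 7 markers fell in B16F0 and all 7 in B16F10, where 25% and 25.3% of all genes tested fell. Their sum after SX-682 was 15770 to 15958 CPM in B16F0 and 14947 to 15188 CPM in B16F10. In all 3 lines 4 of the 7 fell, as 11.7% of all genes tested did. In Melan-A 2 of the 7 rose, where 23.4% of all genes did. The part of the markers in the subunit values was not tested. Markers of fibroblasts, keratinocytes, leukocytes and endothelium summed to at most 60.9 CPM for any list in any library. That sum was of the fibroblast list in untreated Melan-A, where *Col1a1* was at 45.7 and 47.1 CPM. The fibroblast list summed to at most 16.6 CPM in untreated B16F0 and 9.72 CPM in untreated B16F10. On the leukocyte list, *Lyz2* was at 6.93 and 7.07 CPM in untreated Melan-A, and *Cd3e*, which defines T cells, had 0 to 1 reads in a library. Because each value is a share of a culture's RNA, fewer cells of a kind and less RNA per cell cannot be told apart.

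Untreated, all 8 subunits were higher in B16F0 than in Melan-A and all 8 were higher in B16F10 than in Melan-A (edgeR quasi-likelihood F-test, Benjamini-Hochberg adjusted p under 0.05). Of the 18338 genes tested, 35.3% were higher and 40.6% lower in B16F0, and 33.4% were higher and 40.8% lower in B16F10. The log2 fold changes of the subunits ran from 0.66 to 1.09 in B16F0, with a median of 0.87, and from 0.22 to 1.14 in B16F10, with a median of 0.73. The medians over all genes tested were -0.06 and -0.10. Summed over the 8 genes, the level was 2634 CPM in untreated Melan-A, 4862 CPM in untreated B16F0 and 4422 CPM in untreated B16F10, or 1.85 and 1.68 times the Melan-A sum. Levels are given as CPM with library sizes scaled by the trimmed mean of M-values (TMM).

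*Cct8* and *Cct2* had the widest gaps between B16F0 and Melan-A. *Cct8* was at 286 and 282 CPM in untreated Melan-A, 589.8 and 602 CPM in untreated B16F0, and 615 and 634 CPM in untreated B16F10. Its log2 fold change against Melan-A was 1.07 (SE 0.023, edgeR adjusted p = 1.28e-26) in B16F0 and 1.14 (SE 0.023, adjusted p = 3.04e-27) in B16F10, that is 2.10 and 2.20 times the Melan-A level. *Cct2* was at 384 and 378 CPM in Melan-A, 816 and 809 CPM in B16F0, and 621 CPM in both B16F10 libraries. It stood highest in B16F0, 1.09 log2 units above Melan-A (SE 0.021, edgeR adjusted p = 6.55e-28), and 0.71 units above Melan-A in B16F10.

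*Cct4* set the lower end of the range. It was at 257 and 269.8 CPM in untreated Melan-A, 419 and 414 CPM in untreated B16F0, and 304 and 311 CPM in untreated B16F10. The groups did not overlap, but B16F10 lay only 1.17 times above Melan-A (log2 0.22, SE 0.025, edgeR adjusted p = 2.34e-09), whereas B16F0 lay 1.58 times above it. The other 5 subunits were 1.63 to 1.85 times higher in B16F0 and 1.49 to 1.84 times higher in B16F10.

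**Figure D1:**
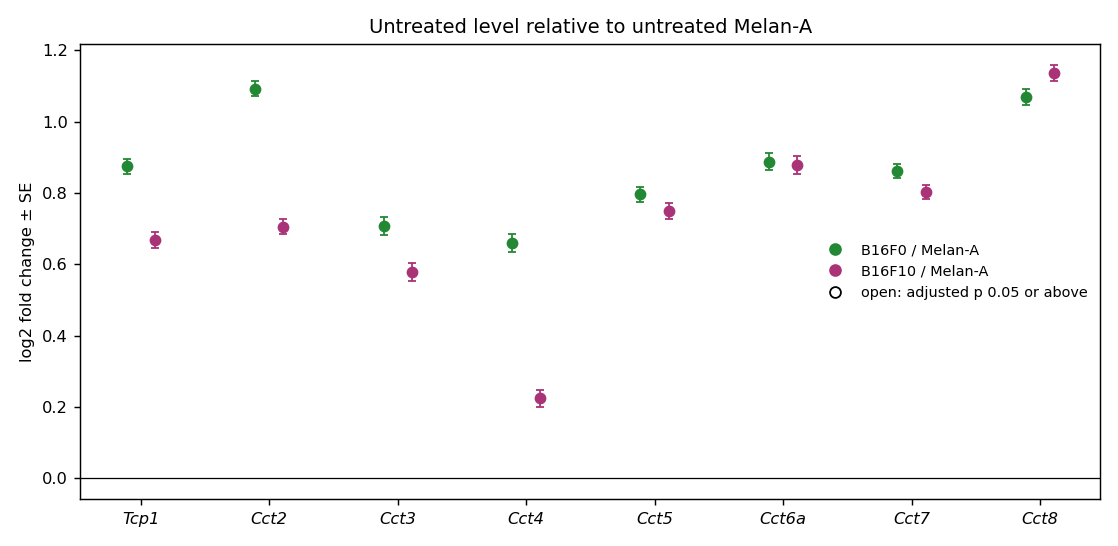
Log2 fold change of each subunit in untreated B16F0 (green) and untreated B16F10 (purple) against untreated Melan-A, with bars of 1 SE from the edgeR fit of 12 libraries. All 16 points lie above 0 and all are past the threshold, with *Cct8* highest in B16F10 at 1.14 and *Cct4* lowest in B16F10 at 0.22.

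Between the melanoma lines the subunits moved apart. In untreated B16F10 against untreated B16F0, 5 of the 8 were lower (31.2% of all genes tested were) and 1 was higher (30.8% of all genes were), and the median over the subunits was -0.09 against -0.00 over all genes. The largest differences were *Cct4* at -0.44 (SE 0.025, edgeR adjusted p = 1.03e-15) and *Cct2* at -0.39 (SE 0.021, edgeR adjusted p = 2.61e-16). *Tcp1* was lower by 0.21, *Cct3* by 0.13 and *Cct7* by 0.06 log2 units, while *Cct5* (-0.05, adjusted p = 0.0559) and *Cct6a* (-0.01, 95% interval -0.06 to 0.04) were not past the threshold. With upper-quartile scaling both were called lower (edgeR adjusted p = 0.000146 and 0.0245). *Cct5* was also called lower by DESeq2 (adjusted p = 0.0404) and with at least 10 counts in every library (edgeR adjusted p = 0.00418). *Cct8* was the 1 higher subunit, at 0.07 (edgeR adjusted p = 0.0105), and this call was lost without B16F0 control replicate 1 (adjusted p = 0.0697) and without B16F10 control replicate 2 (adjusted p = 0.0902). The call of *Cct7* was lost without either of those libraries (adjusted p = 0.203 and 0.0830) and without B16F10 control replicate 1 (adjusted p = 0.0904).

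SX-682 moved individual subunits in opposite directions, and their sum changed by at most 5.29%. In Melan-A, 3 of the 8 rose and 1 fell, where 23.4% of all genes tested rose and 24.7% fell. In B16F0, 3 rose and 4 fell, against 25.1% and 25% of all genes. In B16F10, 2 rose and 5 fell, against 25.5% and 25.3% of all genes. The summed level went from 2634 to 2773 CPM in Melan-A (5.29% higher), from 4862 to 4907 CPM in B16F0 (0.923% higher) and from 4422 to 4383 CPM in B16F10, where it fell by 0.869%. The changes were also small beside those of the transcriptome, since the median absolute log2 fold change of the subunits was 0.05 (Melan-A), 0.13 (B16F0) and 0.16 (B16F10), and that over all genes was 0.31, 0.32 and 0.36. The medians over all genes include genes with few reads, whose fold changes vary more, and no match by level was made. No subunit changed by as much as 0.5 log2 units in any line.

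**Figure D2:**
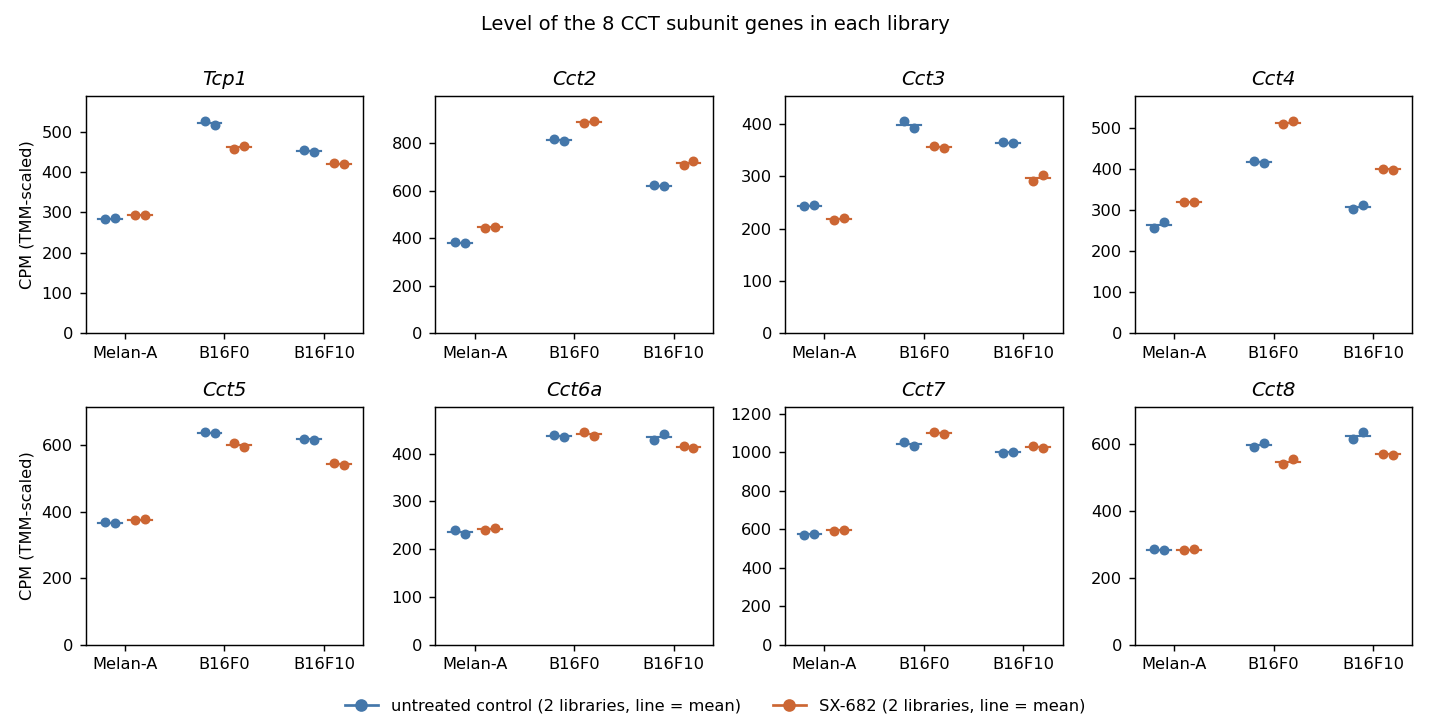
CPM of each subunit in all 12 libraries, 1 panel per gene with its own axis from 0, with untreated controls in blue, SX-682 in orange and a short line at the mean of the 2 libraries. *Cct4* and *Cct2* sit higher and *Cct3* lower in the SX-682 libraries of every line, and the Melan-A libraries sit below the B16 libraries of the same treatment in every panel.

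Among the 8 subunits, 3 were called in the same direction in all 3 lines. *Cct2* and *Cct4* rose in each, where 11.3% of all genes tested rose in all 3, and *Cct3* fell in each, where 11.7% of all genes fell in all 3. *Cct4*, the delta subunit, was at 257 and 269.8 CPM in control and 321 and 320.1 CPM in SX-682 libraries of Melan-A, at 419 and 414 against 509 and 516 CPM in B16F0, and at 304 and 311 against 399 and 398 CPM in B16F10. Treated and control libraries did not overlap in any line. The log2 fold change was 0.28 in Melan-A (SE 0.024, edgeR adjusted p = 4.74e-11), 0.30 in B16F0 (SE 0.024, edgeR adjusted p = 9.98e-12) and 0.37 in B16F10 (SE 0.025, edgeR adjusted p = 7.91e-14), or 21.6%, 23.2% and 29.6% more.

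*Cct2*, the beta subunit, was at 384 and 378 CPM in control and 443 and 447 CPM in SX-682 libraries of Melan-A, at 816 and 809 against 883 and 892 CPM in B16F0, and at 621 and 621 against 707 and 724 CPM in B16F10. It rose by 16.8% in Melan-A (edgeR adjusted p = 1.98e-10), 9.21% in B16F0 (edgeR adjusted p = 4.72e-06) and 15.2% in B16F10 (edgeR adjusted p = 8.91e-10), and again the groups did not overlap.

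*Cct3*, the gamma subunit, went the other way. It was at 243 and 245 CPM in control and 217 and 220.4 CPM in SX-682 libraries of Melan-A, at 406 and 392 against 358 and 353 CPM in B16F0, and at 365 and 363 against 290.4 and 303 CPM in B16F10. The log2 fold change was -0.16 in Melan-A (SE 0.025, edgeR adjusted p = 4.69e-06), -0.16 in B16F0 (SE 0.025, edgeR adjusted p = 2.03e-06) and -0.30 in B16F10 (SE 0.025, edgeR adjusted p = 2.65e-11), with all treated libraries below all controls of their line.

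The opposite shifts of *Cct4* and *Cct3* can be read within a library, where the scaling of library sizes cancels. The ratio of *Cct4* to *Cct3* CPM was 1.06 and 1.10 in untreated Melan-A and 1.48 and 1.45 after SX-682. It went from 1.03 and 1.06 to 1.42 and 1.46 in B16F0, and from 0.831 and 0.857 to 1.37 and 1.31 in B16F10. The ratio rose with treatment in every line, and being made of reads it does not rank the transcripts.

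On the CPM scale *Tcp1*, *Cct5* and *Cct8* fell in the melanoma lines and were not called in Melan-A. *Tcp1*, the alpha subunit, was at 526 and 518 CPM in control and 458 and 464 CPM in SX-682 libraries of B16F0, and at 456 and 449 against 422 and 420 CPM in B16F10. In Melan-A it was at 284 and 285 against 293 and 295 CPM. It fell by 0.18 log2 units in B16F0 (edgeR adjusted p = 4.21e-08) and 0.10 in B16F10, whereas in Melan-A its log2 fold change was 0.05 (adjusted p = 0.0928). The difference between lines was itself past the threshold, at -0.23 for B16F0 minus Melan-A (95% interval -0.29 to -0.16, edgeR adjusted p = 9.11e-07) and -0.15 for B16F10 minus Melan-A.

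*Cct5*, the epsilon subunit, was at 639 and 636 CPM in control and 608 and 596 CPM in SX-682 libraries of B16F0, and at 618 and 616 against 548 and 539 CPM in B16F10. In Melan-A it was at 369 and 365 against 373 and 378 CPM. The change was -0.08 in B16F0, -0.18 in B16F10 and 0.03 in Melan-A (edgeR adjusted p = 0.209), and B16F10 differed from Melan-A by -0.22 (95% interval -0.28 to -0.16, edgeR adjusted p = 8.87e-07). *Cct8*, the theta subunit, went from 589.8 and 602 to 541 and 553 CPM in B16F0 and from 615 and 634 to 569 and 567 CPM in B16F10, while in Melan-A it stood at 286 and 282 CPM in control and 283 and 285 CPM in treated libraries. Its change was -0.12 in B16F0 and -0.14 in B16F10, and in Melan-A the 95% interval ran from -0.05 to 0.05. The share of a subunit in the summed CPM of the 8 genes is free of library scaling. By share, *Tcp1*, *Cct5* and *Cct8* were lower in both treated than in both control libraries of Melan-A. Shares add to a fixed total, so a subunit that rises less than the sum loses share. In Melan-A *Tcp1*, *Cct5* and *Cct7* had lower shares although both treated libraries lay above both controls by CPM. By that share 2 subunits lay above and 6 below their controls in Melan-A, against 5 above, 1 below and 2 overlapping by CPM. With 2 libraries on each side, such separation can arise without any change. It was not counted over all genes, so these counts do not show that subunits separated more often than other genes.

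*Cct7* and *Cct6a* changed least in the melanoma lines. *Cct7*, the eta subunit and the one with the most reads, went from 1052 and 1031 to 1104 and 1097 CPM in B16F0 (5.67% higher) and from 570.3 and 576 to 592 and 596 CPM in Melan-A (3.69% higher, edgeR adjusted p = 0.0259). The Melan-A call was lost without Melan-A control replicate 1 (adjusted p = 0.0573) and without Melan-A SX-682 replicate 2 (adjusted p = 0.0851). In B16F10 *Cct7* was at 998 and 1003 against 1031 and 1022 CPM (adjusted p = 0.114). There it was past the threshold with upper-quartile scaling (edgeR adjusted p = 0.00236) and with only the B16F10 libraries fitted (edgeR adjusted p = 0.0412). *Cct6a*, the zeta subunit, fell by 0.07 log2 units in B16F10 (edgeR adjusted p = 0.0163), a call lost without B16F10 control replicate 2 (adjusted p = 0.160) and without B16F10 SX-682 replicate 2 (adjusted p = 0.125). It went there from 428 and 442 to 417 and 411 CPM, and with upper-quartile scaling it was not called (edgeR adjusted p = 0.220). In Melan-A (241 and 232 against 239 and 244 CPM) and B16F0 (440.2 and 435 against 445 and 437 CPM) its treated and control libraries overlapped.

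**Figure D3:**
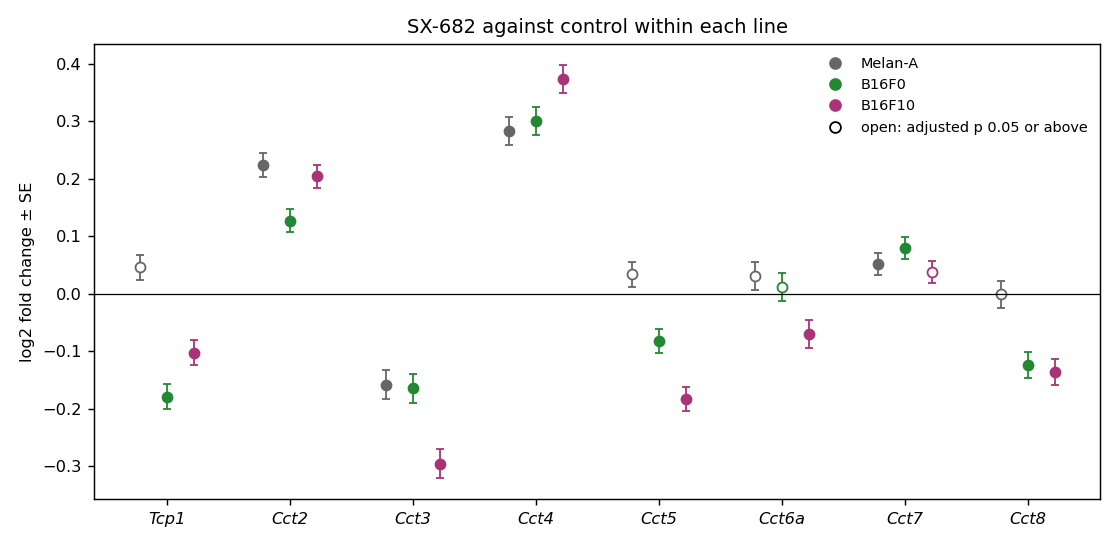
Log2 fold change of each subunit under SX-682 in Melan-A (grey), B16F0 (green) and B16F10 (purple), with bars of 1 SE, filled where the adjusted p was under 0.05. *Cct2* and *Cct4* are above 0 and *Cct3* below 0 in all lines, and *Tcp1*, *Cct5* and *Cct8* are below 0 with filled points in B16F0 and B16F10 only.

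A test of any difference in the SX-682 change among the 3 lines was past the threshold for 6 of the 8 subunits, against 47.4% of all genes tested. These were *Tcp1*, *Cct2*, *Cct3*, *Cct5*, *Cct6a* and *Cct8*. The call of *Cct6a* (edgeR adjusted p = 0.0358) was lost without Melan-A control replicate 2 (0.0554), Melan-A SX-682 replicate 2 (0.0544), B16F10 control replicate 2 (0.138) or B16F10 SX-682 replicate 2 (0.112), and with upper-quartile scaling (0.0555). *Cct4* (adjusted p = 0.0655, but 0.0154 without Melan-A control replicate 1 and 0.0352 with upper-quartile scaling) and *Cct7* (adjusted p = 0.412) were not past it, and the pairwise intervals for *Cct7* stayed between -0.10 and 0.08. *Cct3* fell more in B16F10 than in either other line, by 0.14 log2 units against Melan-A (edgeR adjusted p = 0.00294) and 0.13 against B16F0 (edgeR adjusted p = 0.00490). *Cct4* rose by 0.09 more in B16F10 than in Melan-A (edgeR adjusted p = 0.0421), a call that was lost with RLE scaling (0.103) and without any 1 library other than Melan-A control replicate 1. *Cct2* rose less in B16F0 than in Melan-A, the difference being -0.10 (edgeR adjusted p = 0.00959).

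Counts on some subunits could include reads of other genes, since exons are shared and use of strand in counting is not given in the sources used here. *Cct6a* shared 12.5% of its exonic bases with *Psph* on the opposite strand, and *Psph*, an enzyme of serine synthesis, rose by 0.53 in Melan-A, by 0.78 in B16F0 and by 1.51 log2 units in B16F10. *Psph* had 1286 to 4427 reads in a library and *Cct6a* had 17070 to 32980. *Tcp1* shared 11.4% of its exonic bases with *Acat3*, which had 0 to 16 reads, and 2.80% with *Mrpl18*, which fell by 1.16, 1.15 and 1.26 in the same order of lines, and matched *Acat2* at 98.7% over 445 bases, and *Acat2* fell by 0.37, 1.13 and 1.21. *Cct7* shared 3.16% with *Pradc1*, and *Cct8* shared 6.22% with *Usp16*. The part of these genes in the subunit values was not tested. *Cct2*, *Cct3*, *Cct4* and *Cct5* shared no exonic base with another annotated gene, and the pseudogene copies of *Cct3* and *Cct4* present in the table had 0 to 2 reads.

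Compared per length, as CPM per kilobase of the deposited gene length (RPKM), the subunit transcripts were unequal and their order was nearly fixed. *Cct2* ranked first in all 12 libraries (148 to 349 RPKM), followed by *Cct5* (132 to 231), *Cct8* (91.2 to 205) and *Cct7* (84.1 to 163), and *Cct3* ranked last (34.1 to 63.7). Of the 28 pairs of subunits, 26 had the same order in every library, and the exceptions were *Cct4* with *Tcp1* and *Cct4* with *Cct6a*. *Cct4* was below *Tcp1* and above *Cct6a* in 4 of the 12 libraries each. The deposited length is the union of all annotated exons, which for *Cct3* and *Cct7* was 6370 and 6778 bases against 1977 and 2441 for the longest coding transcript. That transcript length was then used, and for *Cct6a*, which has no coding transcript in GENCODE M21, its longest transcript of any kind (2454 bases). *Cct7* then ranked 1 or 2 in every library, *Cct2* between 1 and 3 and *Cct5* 2 or 3. *Cct8* ranked between 4 and 6, and *Cct3* and *Cct4* between 4 and 8. Only 18 of the 28 pairs kept 1 order, so the order of the subunits, the first place of *Cct2* included, depends on the length used.

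The share of each subunit in the summed RPKM does not depend on library scaling. *Cct2* held 21.9% in untreated Melan-A (SD 0.147, n = 2), 24.8% in untreated B16F0 and 21.01% in untreated B16F10, and 24.0%, 26.8% and 24.3% after SX-682. *Cct4* held 9.20%, 7.73% and 6.33% in the 3 untreated lines and 10.5%, 9.42% and 8.24% after SX-682. *Cct8* held 13.5%, 15.1% and 17.5% untreated and 12.7%, 13.7% and 15.98% after SX-682, so its share was highest in B16F10 under either treatment. *Cct3* held 5.63%, 4.88% and 4.95% untreated and 4.74%, 4.31% and 4.05% after SX-682. The sizes of these shares depend on the length used, and with the longest transcript length *Cct3* held 10.4%, 9.18% and 9.26% untreated and 8.86%, 8.13% and 7.63% after SX-682. The most and least abundant subunit were 3.93 and 3.84 times apart in untreated Melan-A and 5.08 and 5.05 times apart after SX-682, in B16F0 5.01 and 5.15 times became 6.15 and 6.29 times, and in B16F10 4.23 and 4.26 times became 6.06 and 5.95 times. With the longest transcript length these gaps were smaller, at 2.44 untreated and 2.47 treated in Melan-A, 2.55 and 2.53 in B16F0 and 3.31 and 2.80 in B16F10, so that the gap was not wider after SX-682 in either melanoma line.

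**Figure D4:**
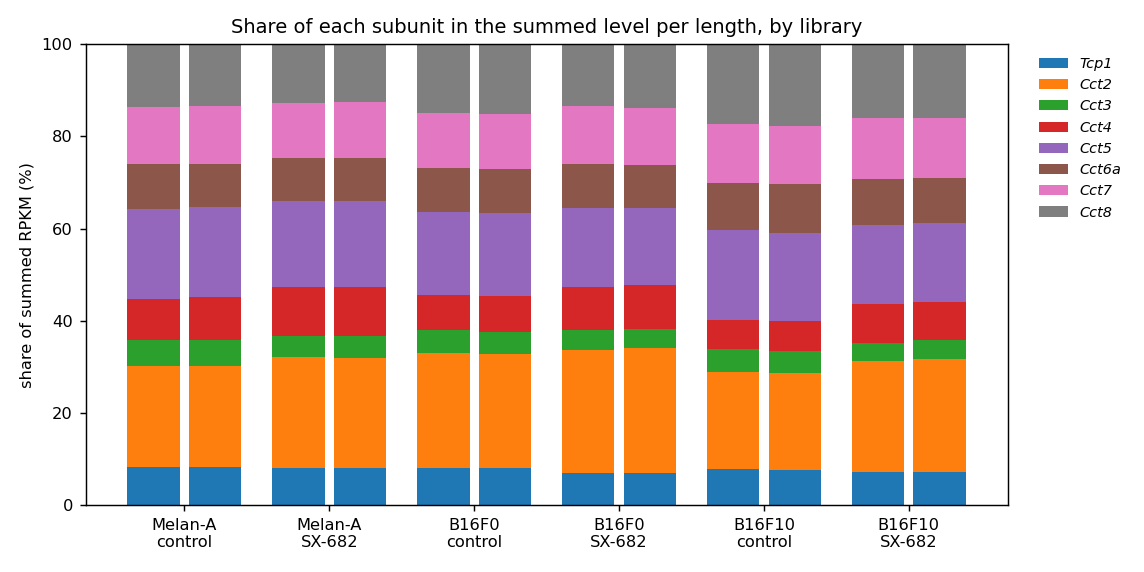
Share of each subunit in the summed RPKM of the 8 genes, 1 stacked bar per library and a pair of bars per group, each adding to 100%. Bars of a pair are almost alike, the *Cct2* and *Cct4* blocks are wider after SX-682 in each line, and the *Cct8* block is widest in B16F10.

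Across the 12 libraries the subunits followed each other on the log2 CPM scale, with a median Pearson r of 0.93 over the 28 pairs and a range from 0.59 (*Cct3* with *Cct4*) to 0.99 (*Cct6a* with *Cct7*). The libraries share 3 line levels, which these values mostly follow. After the mean of each line was subtracted, which leaves the difference between treated and control, the range widened to -0.96 (*Cct3* with *Cct4*) and 0.96 (*Cct2* with *Cct4*), with a median of -0.07. Against the mean profile of the 8 genes, *Cct7* had r = 0.99 and *Cct4* r = 0.78, and 2228 of the 11678 other genes ranked had a higher r than *Cct4*. The 5 genes whose pattern was most like the mean profile were *Glrb*, *Chic1*, *Slc25a5*, *Arhgef11* and *Trpv2*, each with r = 0.998 over the 12 libraries. Spearman's rho for them was 0.92 to 0.94.

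Genes that work with the chaperonin were described from lists, by their counts. Of all genes tested, 11.3% rose and 11.7% fell in all 3 lines. Of the 6 prefoldin subunits, *Pfdn1* and *Pfdn5* rose in all 3 lines, 0 fell in all 3 and 4 were not called in 1 direction throughout. *Pfdn5* went from 137 and 133 to 146 and 147 CPM in Melan-A, and from 143 and 147 to 185 and 188 CPM in B16F10. Of the 3 phosducin-like genes tested, none rose or fell in all 3 lines, and *Pdcl* fell by 0.22 in Melan-A and 0.16 in B16F10. All 6 tubulin folding cofactors rose in B16F0 and B16F10 and 3 of the 6 rose in Melan-A, against 25.1%, 25.5% and 23.4% of all genes in these lines in turn. *Arl2*, a small GTPase that acts with these cofactors, rose by 0.66 in B16F10, 0.37 in Melan-A and 0.35 in B16F0, and *Tbce* by 0.59, 0.30 and 0.23.

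Among client transcripts, the tubulins moved more than the subunits. Of 11 tubulin genes, 8 fell in all 3 lines, as 11.7% of all genes did, with medians of -0.76 (Melan-A), -1.10 (B16F0) and -0.98 (B16F10). *Tubb4b*, a beta tubulin, went from 503 and 521 to 196 and 187 CPM in Melan-A, from 398 and 389.8 to 127 and 127 CPM in B16F0 and from 421 and 409.7 to 164 and 166 CPM in B16F10. *Tuba1a*, an alpha tubulin, fell by 1.14, 1.65 and 1.33. Of the actin genes, *Actb* fell in all 3 lines (0.44, 0.15 and 0.14 lower), and *Actg1* fell by 0.19 in Melan-A and rose by 0.37 in B16F0 and 0.28 in B16F10. The WD40 and other clients had medians of -0.05 (Melan-A), 0.04 (B16F0) and -0.00 (B16F10), and 9 of these 11 were not called in 1 direction in all lines. Of the 11, 1 rose in all lines (*Gnb2*, a G protein beta subunit) and 1 fell in all lines, against 11.3% and 11.7% of all genes. The 1 that fell was *Plk1*, a mitotic kinase, from 141 and 148 to 71.3 and 73.1 CPM in Melan-A, and by 0.54 and 0.16 in the melanoma lines. *Stat3*, a transcription factor, rose by 0.42 in Melan-A and 0.28 in B16F0, and was at 0.03 in B16F10 (adjusted p = 0.462).

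Other chaperones did not share 1 direction with the subunits either. Of 11 genes of the cytosolic Hsp70-Hsp90 system, 7 fell and 1 rose in all 3 lines, against 11.7% and 11.3% of all genes. *Hspa8*, the constitutive Hsp70, went from 2473 and 2457 to 1495 and 1503 CPM in B16F0 and from 2642 and 2641 to 1424 and 1435 CPM in B16F10. *Dnaja1*, an Hsp40 co-chaperone, fell by 0.86, 1.05 and 1.09, and *Hspa1b*, an inducible Hsp70, rose from 10.04 and 8.77 to 42.9 and 37.0 CPM in Melan-A and from 6.88 and 6.54 to 58.1 and 61.3 CPM in B16F10. *Hspa1b* is a near copy of *Hspa1a*, and tubulin and actin genes also have close paralogs, so reads may be split between them. Of the heat shock factors, *Hsf2* rose in all 3 lines (0.16, 0.23 and 0.53) and *Hsf1* in B16F0 only (0.10), and whether the lines differed for *Hsf1* missed the threshold (adjusted p = 0.0517). In the mitochondrial chaperonin, *Hspe1* rose in all lines (0.20, 0.29 and 0.14) whereas *Hspd1* fell by 0.13 in Melan-A and 0.37 in B16F10 and was at -0.03 in B16F0 (adjusted p = 0.293). Among the CCT-like BBS chaperonins, *Mkks* fell in all lines (0.51, 0.66 and 0.90). *Bbs12* fell by 76.2% in B16F0 and 50.2% in B16F10 and was not called in Melan-A (adjusted p = 0.310). The third, *Bbs10*, rose by 0.63 in Melan-A and 0.44 in B16F10. *Cct6b*, the testis form of the zeta subunit, had 11 to 44 reads in a library, and *Cct8l1* had 0 to 2 and was not tested.

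**Figure D5:**
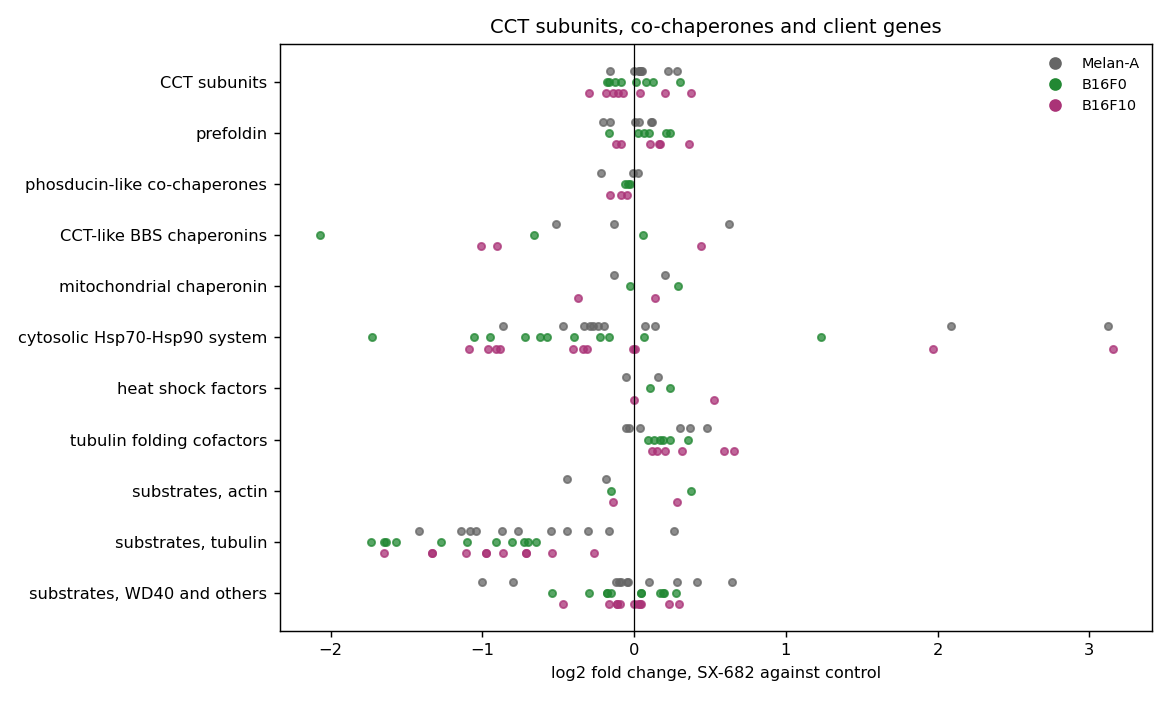
Log2 fold change under SX-682 of each tested gene in the subunit, co-chaperone and client lists, 1 row per list and 1 point per gene and line (grey Melan-A, green B16F0, purple B16F10). The subunits lie between -0.30 and 0.37, and all tubulin points but 1 lie below 0.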

How the data were processed

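The submitters' processing notes name cutadapt, STAR and DESeq2 with mm10, without versions. The authors deposited raw read counts per gene with gene coordinates and lengths. The counting program and its use of strand are not given in the sources used here. All 12 libraries entered 1 edgeR 4.0.16 quasi-likelihood fit (R 4.3.3) with a mean for each of 6 groups, TMM scaling and edgeR's expression filter, which left 18338 genes. P-values were adjusted by Benjamini-Hochberg over all of them, with a threshold of 0.05. The test was checked on simulated data, where it missed some of the changes put in, so a gene not called may still have changed. Total counts were 48877000 to 85322100, so counting error was under 1% for every subunit. Levels between genes were compared per kilobase of the deposited length, which equalled the GENCODE M21 exon union for all 33821 genes with the same identifier. Promoters came from RefSeq (GRCm38.p6), and near-identical copies from blast (80% identity over 200 bases). Named partners were the 2 genes per list with the largest absolute mean log2 fold change over the 3 lines, at a mean log2 CPM of at least 1. *Hspa8*, *Gnb2*, *Bbs10* and the overlapping genes were named after their values were seen. The subunits and all lists were chosen with earlier results of these data known.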

Additional observations from a re-analysis of the deposited data

Results flagged for a closer look

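For 6 subunits the SX-682 change differed among the 3 lines by the test of that difference (edgeR F-test over all genes). The same test called 47.4% of all genes tested. The span between the highest and lowest log2 fold change was 0.23 for *Tcp1* (edgeR adjusted p = 2.05e-06), 0.22 for *Cct5* (edgeR adjusted p = 2.62e-06) and 0.14 for *Cct8* (edgeR adjusted p = 0.00115), with Melan-A at the upper end for each. The span was 0.14 for *Cct3* (edgeR adjusted p = 0.00228) and 0.10 for *Cct6a* (edgeR adjusted p = 0.0358), with B16F10 at the lower end. For *Cct2* it was 0.10 (edgeR adjusted p = 0.0151), with B16F0 at the lower end. The call of *Cct6a* was lost with upper-quartile scaling (edgeR adjusted p = 0.0555) and, as given above, without some single libraries.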

How the results depend on the processing

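The direction of every called subunit was kept under the alternatives run. With upper-quartile scaling 6 subunits rose in Melan-A in place of 3, with *Tcp1*, *Cct5* and *Cct6a* added (*Tcp1* was also past the threshold by DESeq2, adjusted p = 0.0330, and with at least 10 counts, 0.0354), and 0 were higher in untreated B16F10 than in untreated B16F0. That last count was also 0 with at least 10 counts in every library and at an adjusted p under 0.01. With a log2 fold change of at least 0.5 required, the counts of subunits changed by SX-682, in each line and in all 3, and those between the untreated melanoma lines were 0. With 1 library left out, rising subunits in Melan-A numbered 2 to 4, falling subunits in B16F10 4 to 5, those higher in untreated B16F10 than B16F0 0 to 1, those lower 4 to 5 and those whose change differed among lines 5 to 7. Of the single SX-682 values with 1 library left out, 4 calls were lost, 3 gained and 281 stayed. Differences of that change between lines were less stable, with 25 calls lost, 4 gained and 259 that stayed, and 11 lost and 6 gained under the other alternatives. Subunits rising in B16F0 stayed at 3, falling at 4, and the 8 higher in each melanoma line stayed at 8.

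Same-numbered libraries showed no shared deviation (r of -0.12, -0.03 and -0.05 in Melan-A, B16F0 and B16F10). The labels do not say whether the numbers pair the samples, and this check cannot settle it. With the replicate block, the B16F10 minus B16F0 difference for *Cct2* had adjusted p = 0.0534 in place of 0.0450, and no other subunit call changed. That *Cct2* call was also lost by DESeq2 (adjusted p = 0.125) and with RLE scaling (edgeR adjusted p = 0.179). It was lost as well with no filter, with at least 10 counts in every library, with only the lines compared fitted and without several single libraries. Spearman correlation shared 0 and RLE scaling 3 of the 5 genes most like the subunits. The widest range of a subunit's share was 5.99 percentage points, and 4.72 with the longest transcript length. The cause was not tested.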
